A study of Homo sapiens with 8 samples.

Results

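Respiratory complex I genes were examined by ribosome profiling, in which cellular RNA is digested and only the stretches covered by ribosomes, called footprints, are sequenced. Members were the protein-coding genes whose symbol is NDUFA, NDUFB, NDUFC, NDUFS, NDUFV or NDUFAF followed by a number, 47 of the 60651 genes in the table, with pseudogenes left out. Of these, 36 encode subunits of the complex and 8 encode assembly factors (NDUFAF1 to NDUFAF8). The remaining 3 match by symbol only: NDUFA4 is a subunit of complex IV, NDUFA4L2 is its paralog, and NDUFC2-KCTD14 is a readthrough of neighbouring genes.

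The cells were IMR32, a human neuroblastoma line with amplified MYCN, labelled as wild type. In 4 libraries they had received CR31B, an analogue of silvestrol, for 6 h, and in the other 4 libraries DMSO, the solvent, as control. Silvestrol and its relatives clamp the RNA helicase eIF4A, part of the cap-binding complex that loads ribosomes onto mRNA. Both groups were given cycloheximide, which stops elongating ribosomes, before harvest, and all libraries come from this single line and inhibitor.

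Complex I is the NADH dehydrogenase of the inner mitochondrial membrane. It passes electrons from NADH through a flavin and a chain of iron-sulfur clusters to ubiquinone and pumps protons. Its L shape has a matrix arm, which carries the redox centres, and a membrane arm, which carries the pumps. Most subunits are made in the cytosol from nuclear genes, while the mitochondrial genome encodes the core of the membrane arm, and dedicated assembly factors join the modules without staying in the finished enzyme.

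Because the inhibitor acts at initiation, the sequence around the annotated start codon is shown for the members with a called difference (NDUFS5 and NDUFAF4) and for 6 nuclear core subunits, the kind shared with the bacterial enzyme. Each window runs 5′ to 3′ from 12 bases before the start codon, which is in capitals, and is read from the principal GENCODE 29 transcript (GRCh38).
NDUFS5: cgagcatcggccATGcctttcttggacatc
NDUFAF4: tgttatgaggagATGggagcactagtgatt
NDUFS1: gggagaagcaatATGttaaggatacctgta
NDUFS3: catctgagtaacATGgcggcggcggcggta
NDUFS7: gccgaggccaagATGgcggtgctgtcagct
NDUFS8: cggcgcttcaagATGcgctgcctgaccacg
NDUFV1: tggcccgccgcgATGctggcaacacggcgg
NDUFV2: gtgtggcccgccATGttcttctccgcggcg

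The start codon of NDUFS5 lies at chr1:39028725-39028727 on the plus strand, inside a coding exon of a gene that spans chr1:39026318-39034636. That of NDUFAF4 lies at chr6:96897799-96897801 on the minus strand, in a gene that spans chr6:96889313-96897881. These core subunits start at chr2:206153676-206153678 (NDUFS1, minus strand), chr11:47579092-47579094 (NDUFS3, plus), chr19:1383927-1383929 (NDUFS7, plus), chr11:68032152-68032154 (NDUFS8, plus), chr11:67607005-67607007 (NDUFV1, plus) and chr18:9102744-9102746 (NDUFV2, plus). The strong initiation context, ANNATGG or GNNATGG on the transcript strand, was present in NDUFAF4, NDUFS3 and NDUFS7 and not in NDUFS5, NDUFS1, NDUFS8, NDUFV1 and NDUFV2. It occurred in 29 of the 47 members (61.7%) and in 42.6% of 18392 coding genes with such a window. These matches describe the letters of the reference only, since gene-level values do not place footprints on the transcript.

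Values are TPM, which divide a gene's footprints by its transcript length and then bring each library to the same total. A rise or fall is therefore relative to the other genes of the library. A change in the total number of footprints per cell would not show. The deposited table does not give read numbers. From the spacing of the lowest values a rough number could be derived for NDUFS5, taking its annotated transcript of 544 nt. It was 8853 to 13698 reads per library in CR31B and 14279 to 25895 in DMSO. A single read was worth an estimated 16.35 to 23.05 (transcript length times TPM) in CR31B and 11.25 to 19.05 in DMSO. Read depth may therefore differ between the groups. Protein-coding genes took 51.8% to 61.3% of TPM, and CR31B replicate 1 stood apart at 61.3% against 51.8% to 52.3% in the other CR31B libraries. Neuroblastoma identity genes were present, with 9 of 10 markers at a mean of at least 1 TPM (TH was below it) and a summed level of 1280 to 1850 TPM in CR31B and 1200 to 1440 TPM in DMSO. Of the markers of other cells, COL1A1 alone reached a mean of 1 TPM. The summed level in CR31B and in DMSO was 6.12 to 13.1 and 9.37 to 17.2 TPM for 6 fibroblast markers, 0.61 to 1.26 and 0.78 to 2.07 TPM for 4 Schwann cell markers, at most 0.24 and 0.15 TPM for 4 leukocyte markers, and 0.35 to 0.57 and 0.62 to 1.01 TPM for 3 endothelial markers, with PRRX1, SOX10, CD3E and VWF at or near 0. No mRNA abundance was analysed here, so more mRNA and more ribosomes per mRNA cannot be told apart, nor can fewer cells and less RNA per cell. Whether the replicates are separate cultures is not given in the sources used here, so p-values measure the spread between these libraries, which may be technical.

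The footprint level per length differed widely between subunits, although they are parts of one enzyme. The mean TPM over the 8 libraries ran from 14.9 for NDUFC1 to 1532 for NDUFC2, both small membrane-arm subunits, a 103-fold span, with a median of 123 TPM over the 36 subunits. The 11 NDUFB subunits of the distal membrane arm were closer together, from 101 TPM (NDUFB8) to 338 TPM (NDUFB4). Matrix-arm subunits ran from 16.3 TPM (NDUFV3) to 207 TPM (NDUFV1), and the 9 subunits of the proximal membrane arm covered the full span from NDUFC1 to NDUFC2. Assembly factors were at lower levels, from 5.95 TPM (NDUFAF7) to 111.5 TPM (NDUFAF3), with a median of 28.6 TPM. TPM divides by the whole transcript while footprints come mainly from coding sequence, so genes with long untranslated ends are understated: the principal transcript of NDUFS1 has 11819 nt, of which 2184 nt are coding.

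The comparison asked which of these genes had another footprint level under the eIF4A inhibitor. A gene was tested when its mean was at least 1 TPM, which kept 45 of the 47 members. NDUFA4L2 and NDUFC2-KCTD14 were not tested, with means of 0.266 and 0.716 TPM. Of the 45 members, 2 passed a limma adjusted p under 0.05 (4.44%): NDUFS5, which fell, and NDUFAF4, which rose. The share of all 11778 tested genes that passed was 7.46% (3.45% higher, 4.02% lower), so the members' share lay below the background and is no result about them as a group. The members' log2 fold changes had a median of 0.066, with 29 of 45 above 0, against a median of 0.029 with 6374 of 11778 above 0 for all tested genes. The members' median was 0.019 without DMSO replicate 3, 0.030 without CR31B replicate 1 and 0.12 without DMSO replicate 1, and it was above 0 when any library was left out. At an unadjusted limma p under 0.05 there were 7 members, while 23.4% of all genes reached it. CR31B was the higher library within all 4 replicate numbers for 12 of 45 members and the lower for 5 of 45, against 2366 and 2124 of all 11778 tested genes.

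**Figure D1:**
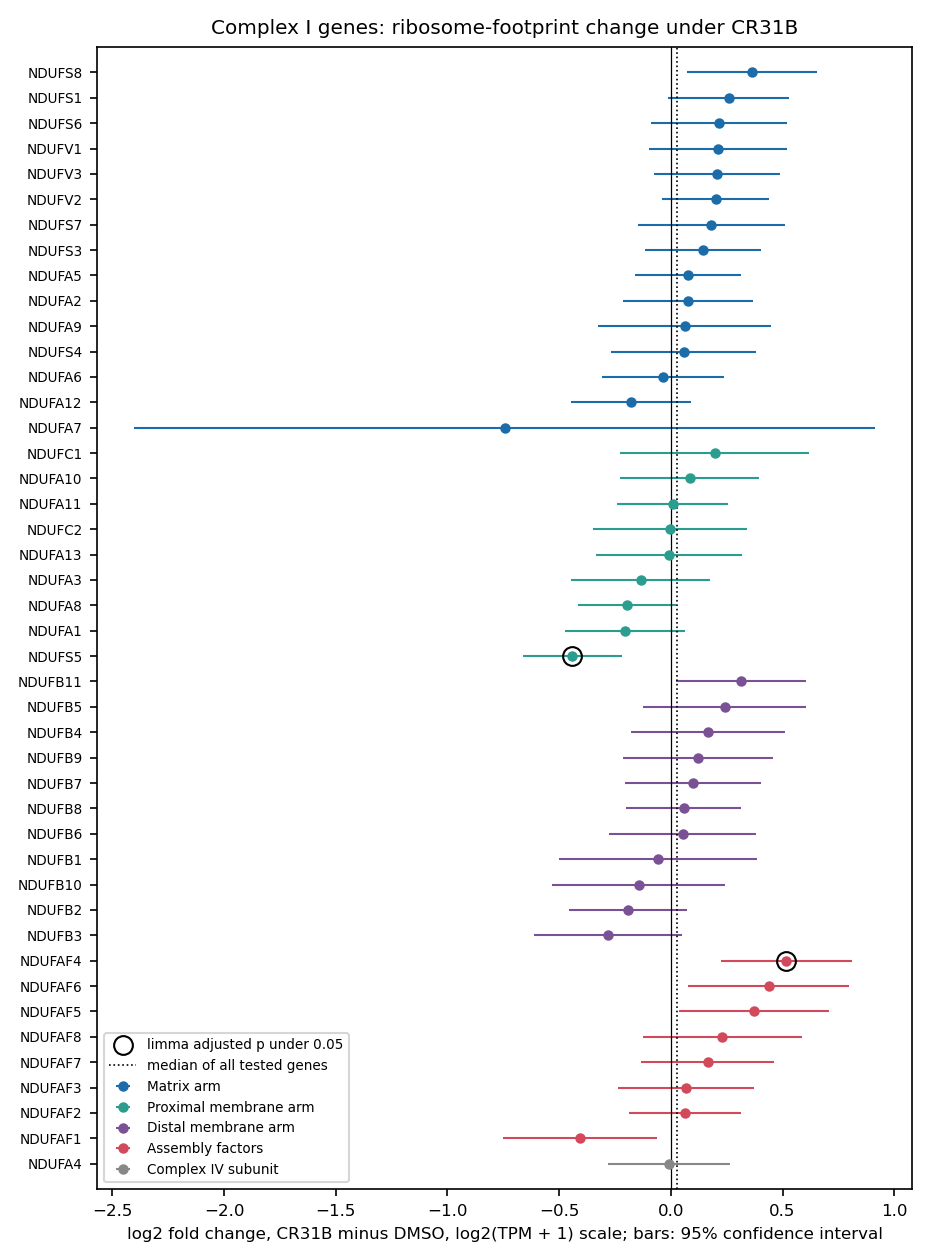
Log2 fold change (CR31B minus DMSO, log2(TPM + 1) scale) of 44 tested genes, grouped by arm of the complex or as assembly factors; bars are 95% confidence intervals from limma and the dotted line is the median of all tested genes (0.029). The ringed points are NDUFS5 at -0.44 and NDUFAF4 at 0.52, and NDUFA7 has by far the widest interval.

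NDUFS5 encodes a small accessory subunit on the intermembrane-space face of the proximal membrane arm, held in shape by disulfide bonds of the CX9C type. Its level was 427, 403, 389 and 395 TPM in CR31B (replicates 1 to 4) against 547, 556, 519 and 571 TPM in DMSO (same order). All CR31B libraries lay below all DMSO libraries, and the spread within each group was small beside the gap. The group means were 403.7 ± 16.8 TPM and 548.1 ± 21.7 TPM (SD, n = 4 each), a fall of 26.3% on the fitted scale. On the log2 scale this was -0.44 with an SE of 0.10 and a 95% confidence interval from -0.66 to -0.22 (adjusted p of 0.0271 by limma). The exact permutation test gave 0.0286, the smallest p that 4 against 4 libraries allow. The table lists 6 NDUFS5 pseudogenes, together at a mean of 0.0513 TPM, and no exon of another annotated gene overlaps NDUFS5.

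The size of the NDUFS5 difference was stable, but its call rested on having all libraries. With all of them kept it passed every alternative, with limma adjusted p from 0.0117 (rescaled over protein-coding genes) to 0.0356 (without the low-value filter). Leaving out any library except CR31B replicate 1 or DMSO replicate 3 ended the call, with limma adjusted p from 0.0545 (without CR31B replicate 2) to 0.0904 (without DMSO replicate 4) and log2 fold changes from -0.44 to -0.42.

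NDUFAF4, which acts with NDUFAF3 in building the ubiquinone-binding part of the matrix arm, was the only assembly factor called. It stood at 135, 121, 121 and 124 TPM in CR31B (replicates 1 to 4) against 91.2, 96.7, 67.4 and 97.1 TPM in DMSO (same order). The groups did not overlap, and DMSO replicate 3 was the lowest library. The means were 125.3 ± 6.51 TPM and 88.11 ± 14.1 TPM (SD, n = 4 each). On the log2 scale CR31B exceeded DMSO by 0.52, with an SE of 0.13 and a 95% confidence interval from 0.22 to 0.81 (adjusted p of 0.0410 by limma, 0.0286 by exact permutation). NDUFS5 and NDUFAF4 were also the only members whose groups did not overlap, 2 of 45 (4.44%) against 16.2% of all tested genes (8.07% with CR31B higher, 8.14% with CR31B lower).

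The NDUFAF4 call was less secure than its direction. It was lost when any of the 8 libraries was left out, with limma adjusted p from 0.0558 (without DMSO replicate 3, log2 fold change 0.39) to 0.0886 (without CR31B replicate 4, 0.52), without the low-value filter (0.103) and without the variance trend (0.0560). The call held with the replicate number as a block (limma adjusted p of 0.0262), after rescaling over protein-coding genes (0.00932) and after quantile normalization (0.0202). It also held with a minimum of 10 TPM (limma adjusted p of 0.0313) and a pseudocount of 0.1 (0.0432).

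Counts of 0 to 4 called members under the other settings stand against moving backgrounds. By limma, the share of all genes called was 1.55% without the filter (1 member, NDUFS5), 11.0% after rescaling over protein-coding genes (4 members), 9.97% after quantile normalization (3), 7.39% without the variance trend (1) and 7.47% with pseudogene copies added (2). It was 6.61%, 6.27%, 5.36% and 4.37% without CR31B replicates 1, 2, 3 and 4 in turn, and 4.26%, 4.37%, 6.66% and 3.44% without DMSO replicates 1, 2, 3 and 4. NDUFS5 alone was called without CR31B replicate 1 or DMSO replicate 3, and no member was called when any other library was left out, where 4 to 7 of 45 members and 2247 to 2736 of all 11778 genes had an unadjusted limma p under 0.05.

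**Figure D2:**
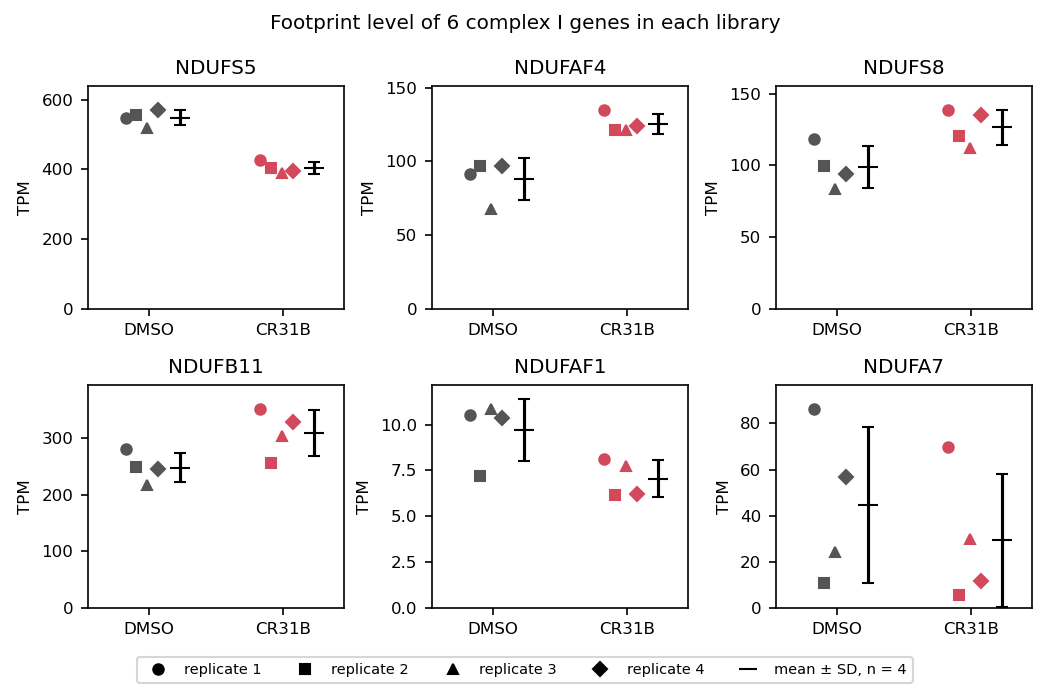
TPM of 6 genes in each library (grey: DMSO, red: CR31B; marker shape: replicate number; bar: mean ± SD, n = 4). NDUFS5 and NDUFAF4 separate the groups without overlap, NDUFS8, NDUFB11 and NDUFAF1 overlap at the edges, and NDUFA7 ranges from 5.79 to 86.2 TPM.

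Among the other assembly factors, none passed the test, and the values went both ways. NDUFAF3, the partner of NDUFAF4, had a log2 fold change of 0.066 (limma adjusted p of 0.824), with 96.8 to 129 TPM in CR31B and 98.1 to 134 TPM in DMSO. NDUFAF6, a factor needed for early assembly around the mitochondrially encoded ND1, stood at 9.71, 10.2, 14.2 and 8.39 TPM in CR31B against 7.60, 7.15, 6.39 and 8.75 TPM in DMSO (replicates 1 to 4). CR31B replicate 4 lay below the highest DMSO library, and the log2 fold change was 0.44 (adjusted p of 0.136 by limma, SE 0.16). NDUFAF5, which hydroxylates NDUFS7, was at 0.37 (adjusted p of 0.168 by limma, SE 0.15), and NDUFAF8, its stabilising partner, at 0.23 (0.430).

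NDUFAF1, a member of the complex that builds the ND2 part of the membrane arm, had the lowest value of the assembly factors. It stood at 8.13, 6.14, 7.72 and 6.23 TPM in CR31B against 10.5, 7.18, 10.9 and 10.3 TPM in DMSO (replicates 1 to 4). DMSO replicate 2 lay among the CR31B libraries, and the log2 fold change was -0.41 (adjusted p of 0.147 by limma, SE 0.16). NDUFAF2, a paralog of the subunit NDUFA12 that serves late assembly, was at 0.064 (limma adjusted p of 0.786), and NDUFAF7, a protein arginine methyltransferase, at 0.17 (0.502). Over the 8 assembly factors the median was 0.20, 7 of 8 were above 0 and 1 was called, where 6374 of all 11778 tested genes were above 0 and 7.46% were called. The median was 0.11 without CR31B replicate 3 and 0.28 without CR31B replicate 2, with 7 of 8 above 0 when any library was left out.

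The 7 nuclear core subunits include those that hold the flavin and the iron-sulfur clusters. None of the 7 passed the limma test (1 had an unadjusted p under 0.05), and their median log2 fold change was 0.20 (0.13 without CR31B replicate 1 to 0.25 without DMSO replicate 1). NDUFS8, an iron-sulfur protein next to the ubiquinone site, had the largest value. It stood at 139, 121, 112 and 135 TPM in CR31B (replicates 1 to 4) against 118, 99.5, 83.4 and 93.9 TPM in DMSO (same order). CR31B was higher within every replicate number, while the groups overlapped through DMSO replicate 1. The log2 fold change was 0.36 (adjusted p of 0.126 by limma, SE 0.13). With the replicate number as a block NDUFS8 passed (limma adjusted p of 0.0407), as it did after rescaling over protein-coding genes (0.0344). Under the block 3 members and 12.3% of all genes were called (5.77% higher, 6.56% lower), 1453 in place of 879.

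NDUFS1, the largest iron-sulfur subunit, was at 57.7 to 80.1 TPM in CR31B and 53.7 to 63.5 TPM in DMSO, with a log2 fold change of 0.26 (adjusted p of 0.237 by limma, SE 0.12). NDUFV1, which binds NADH and the flavin, was at 0.21 (adjusted p of 0.405 by limma, SE 0.14), and NDUFV2, its iron-sulfur partner, at 0.20 (SE 0.11, 0.297). NDUFS7, which carries the cluster that hands electrons to ubiquinone, was at 0.18 (limma adjusted p of 0.506) and NDUFS3 at 0.14 (0.508).

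Of the 29 accessory subunits, which surround the core, NDUFS5 was the only one called. Their median log2 fold change was 0.054, with 16 above 0 and 13 below. Its sign could turn when 1 library was left out: it was -0.057 without CR31B replicate 1 (13 above 0) and -0.016 without DMSO replicate 3 (14 above 0). By position, with all 36 subunits counted, 12 of 16 in the matrix arm were above 0 (median 0.11). These 16 include the 7 core subunits (median 0.20), so the matrix-arm value partly repeats theirs. The accessory subunits of the matrix arm were not summarised apart. In the proximal membrane arm 3 of 9 were above 0 (median -0.0081, but 0.027 after rescaling over protein-coding genes and 0.041 after quantile normalization). In the distal membrane arm 7 of 11 were above 0 (median 0.057). Of all 11778 tested genes, 6374 were above 0. With 1 library left out, these medians ran from 0.073 (without DMSO replicate 3) to 0.18 (without CR31B replicate 2) in the matrix arm, from -0.11 (without CR31B replicate 1) to 0.038 (without DMSO replicate 1) in the proximal arm and from 0.035 (without CR31B replicate 1) to 0.11 (without CR31B replicate 4) in the distal arm. NDUFB11, an X-encoded subunit of the distal arm, had the largest value among accessory subunits. It stood at 352, 256, 304 and 329 TPM in CR31B against 281, 250, 218 and 245 TPM in DMSO (replicates 1 to 4). CR31B replicate 2 lay within the DMSO range, and the log2 fold change was 0.31 (adjusted p of 0.179 by limma, SE 0.13). NDUFB11 passed after rescaling over protein-coding genes (limma adjusted p of 0.0442) and after quantile normalization (0.0409), and its exons share 636 bases with RBM10 on the opposite strand.

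NDUFB3, another small distal-arm subunit, was at 186, 183, 180 and 131 TPM in CR31B against 204, 240, 172 and 209 TPM in DMSO (replicates 1 to 4). CR31B replicate 4 was far below the rest, and the log2 fold change was -0.28 (adjusted p of 0.288 by limma, SE 0.15). NDUFC2, the most abundant subunit, was at 1362 to 1734 TPM in CR31B and 1253 to 1784 TPM in DMSO, with a log2 fold change of -0.0038 (95% confidence interval -0.35 to 0.34). Its sign turned under rescaling over protein-coding genes and under quantile normalization. NDUFC1, the least abundant, was at 0.20 (adjusted p of 0.589 by limma, SE 0.19). A further 23 subunits had log2 fold changes from -0.20 to 0.24 and limma adjusted p from 0.264 to 0.981. NDUFA4, the complex IV subunit, was at -0.0069 (limma adjusted p of 0.980).

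The CX9C fold of NDUFS5 is shared by NDUFA8, NDUFB7 and NDUFB10, which were looked up after the NDUFS5 value was seen. NDUFA8 was at 52.9, 49.2, 46.8 and 47.5 TPM in CR31B against 56.5, 52.6, 59.8 and 56.7 TPM in DMSO (replicates 1 to 4). CR31B replicate 1 lay just above the lowest DMSO library, and the log2 fold change was -0.20 (adjusted p of 0.264 by limma, SE 0.098). NDUFB10 was at -0.14 (limma adjusted p of 0.674) and NDUFB7 at 0.10 (0.712). Among these 4 CX9C subunits NDUFS5 was the only one called, and differences between them were not tested.

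**Figure D3:**
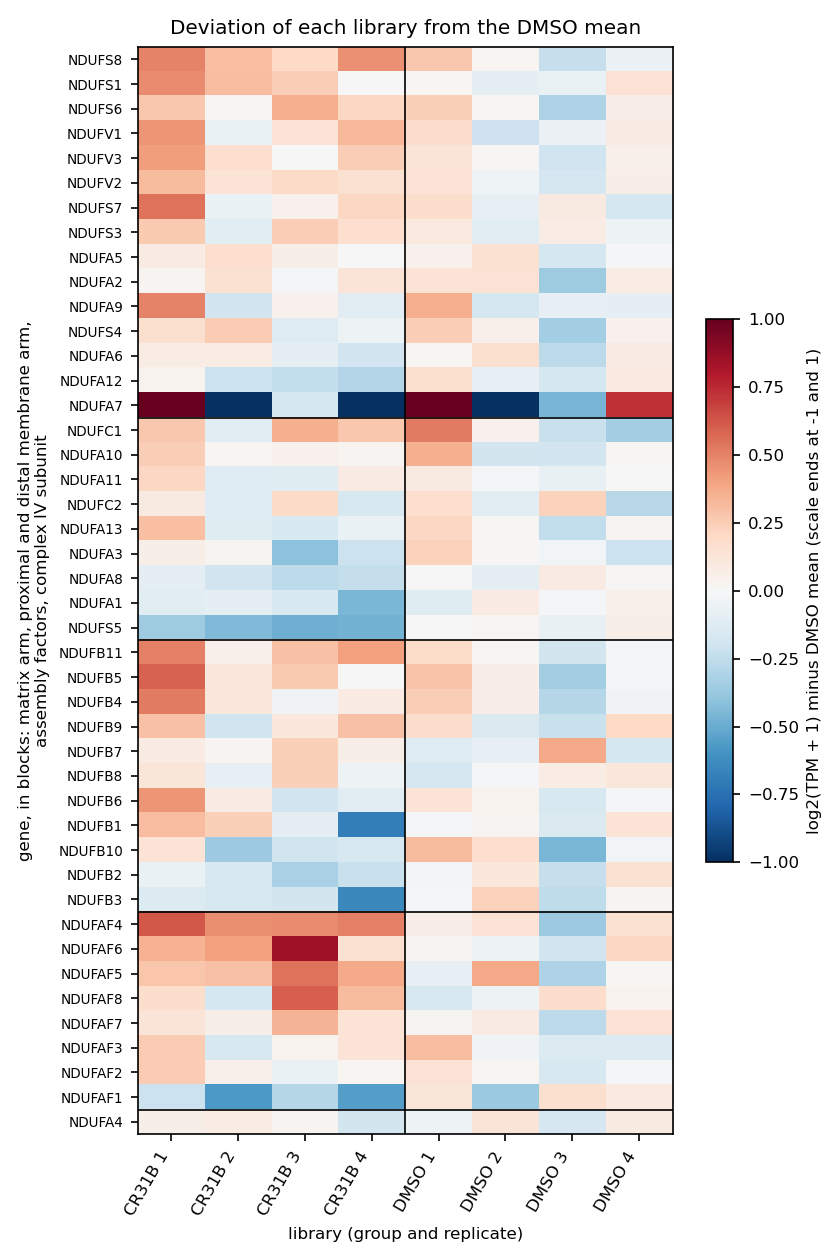
Each library's log2(TPM + 1) minus the DMSO mean for 44 tested genes (red above, blue below; the scale ends at -1 and 1). NDUFS5 is blue and NDUFAF4 red in all CR31B columns, CR31B replicate 1 is red for most subunits, and NDUFA7 swings beyond the scale in both groups.

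Much of the variation among subunits followed the library. CR31B replicate 1 was the highest CR31B library for 26 of 36 subunits (72.2%), against 43.2% of all tested protein-coding genes, and DMSO replicate 3 the lowest DMSO library for 22 of 36 (61.1%), against 33.7%. The median subunit deviated from its DMSO mean by 0.25 (log2 scale) in CR31B replicate 1 and by -0.069 to -0.0048 in the other CR31B libraries. In DMSO replicates 1 to 4 this median deviation was 0.17, 0.012, -0.18 and 0.023, so replicate 1 was the highest library of both groups. CR31B replicate 1 was also the library with the largest protein-coding share, and within protein-coding TPM its subunits took 1.36%, between the other CR31B libraries. DMSO replicate 1 had the largest protein-coding share of its group (58.4%).

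As a share of all TPM, the 36 subunits together took 0.735% ± 0.0671 under CR31B against 0.741% ± 0.0480 under DMSO (SD, n = 4 each). Counted within protein-coding TPM the subunits took 1.33% to 1.39% in CR31B and 1.26% to 1.39% in DMSO, so the summed level of the complex overlapped between the groups. As a share of all TPM, the core subunits (0.0646% to 0.0831% under CR31B, 0.0582% to 0.0704% under DMSO) and the assembly factors (0.0352% to 0.0418%, 0.0293% to 0.0361%) also overlapped. Only within protein-coding TPM did the groups separate for these sums. There the core subunits took 0.125% to 0.143% in CR31B and 0.107% to 0.121% in DMSO, and 0.101% to 0.117% against 0.0884% to 0.100% without NDUFS8. The assembly factors took, of protein-coding TPM, 0.0679% to 0.0756% in CR31B and 0.0564% to 0.0619% in DMSO. Without NDUFAF4, those ranges were 0.0445% to 0.0524% and 0.0410% to 0.0463%, and overlapped. These sums are given as descriptions, with no test. After rescaling over protein-coding genes, 6488 of 11127 tested genes were above 0 (median 0.062). How often other gene sums separate on that scale was not examined.

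Subunits differ in size, and the shorter ones tended to have the lower values. Across the 36 subunits the log2 fold change had a Spearman correlation of 0.470 with coding length, against 0.0859 across 10295 tested protein-coding genes with a known coding length. All points come from the same 8 libraries, and genes are not independent. Subunits with under 400 nt of coding sequence (16 genes) had a median log2 fold change of -0.019 and longer ones (20 genes) one of 0.092. Among all protein-coding genes the corresponding medians were 0.0095 and 0.032. Leaving out the core subunits, which are long, the correlation over 29 accessory subunits was 0.333. NDUFS5 has 321 nt and NDUFS1, the longest, 2184 nt. NDUFA7 (342 nt) is included at its uncertain value of -0.74 (SE 0.75). Summed with a gene that overlaps it, its mean was higher in CR31B (97.8 TPM) than in DMSO (80.4 TPM). NDUFB1 (318 nt) is included at -0.058, and was at 0.21 with its pseudogene copy added. The correlations and medians were not computed with NDUFA7 and NDUFB1 at their summed values, so the size of the tendency is uncertain.

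**Figure D4:**
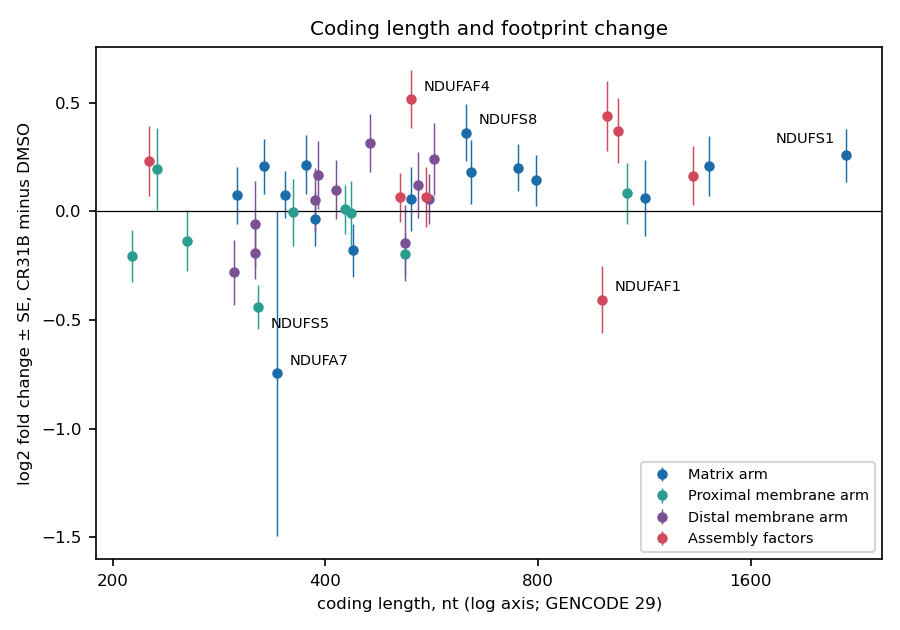
Coding length (nt, log axis) against log2 fold change (± SE) for 35 subunits and 8 assembly factors, coloured by arm of the complex or as assembly factors. Points below -0.25 lie mostly at short coding lengths (NDUFS5, NDUFB3, NDUFA7), with NDUFAF1 as the long exception. The NDUFA7 value is uncertain (SE 0.75). Its exons overlap another gene on the same strand, and whether this produced the spread was not tested.

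A few members share sequence with gene copies or overlapping genes. NDUFA7, a matrix-arm subunit, stood at 69.6, 5.79, 29.8 and 11.8 TPM in CR31B against 86.2, 10.7, 24.3 and 56.8 TPM in DMSO (replicates 1 to 4). No other member varied as much, and its log2 fold change of -0.74 had an SE of 0.75 (limma adjusted p of 0.603). A coding gene without a symbol in the table used, ENSG00000167774.2, shares 456 exon bases with NDUFA7 on the same strand. It stood at 54.5, 76.8, 65.6 and 77.3 TPM in CR31B against 11.7, 67.6, 44.5 and 19.98 TPM in DMSO (replicates 1 to 4), high where NDUFA7 was low. Summed, both were at 124, 82.5, 95.4 and 89.1 TPM in CR31B and 97.9, 78.2, 68.8 and 76.8 TPM in DMSO, a far narrower range. The sums averaged 97.8 ± 18.3 TPM and 80.4 ± 12.4 TPM (SD, n = 4 each; exact permutation p of 0.171), so the separate NDUFA7 value is uncertain.

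Pseudogene copies were also listed with values. The table holds 62 pseudogenes named after 20 members, and 4 of them reached a mean of 1 TPM. In CR31B replicates 1 to 4, NDUFB1P1 stood at 122, 56.8, 180.02 and 217 TPM, while NDUFB1 itself stood at 135, 128, 102 and 66.8 TPM. The DMSO values, in the same order, were 145, 80.0, 112 and 88.5 TPM for the copy and 107, 110.1, 97.8 and 119 TPM for NDUFB1. The copy was thus the higher of the pair in CR31B replicates 3 and 4 and in DMSO replicates 1 and 3, and over all libraries the copies held 53.6% of the summed level. With the copy added, NDUFB1 moved from a log2 fold change of -0.058 (SE 0.20) to 0.21 (adjusted p of 0.455 by limma, SE 0.16). Copies also held 37.7% of the summed level for NDUFAF2, 30.3% for NDUFA5 and 3.82% for NDUFA4, and these members were not called with or without them. Exons of another annotated gene overlap 27 of the 47 members, 19 of them with a gene at a mean of at least 1 TPM.

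Complex I genes outside the symbol rule were compared as well. NDUFAB1, the mitochondrial acyl carrier protein that is also a subunit, was at 183, 158, 163 and 155 TPM in CR31B against 136, 144, 123 and 155 TPM in DMSO (replicates 1 to 4). The groups met at 154.9 and 154.8 TPM without overlapping, and the log2 fold change was 0.24 (adjusted p of 0.225 by limma, SE 0.11). Of 14 assembly factors with other names none passed the limma test (1 had an unadjusted p under 0.05), 7 were above 0 and 7 below, and the median was 0.0053 (-0.049 to 0.041 with 1 library left out). The 1 was TMEM126A, which helps to build the ND4 part of the membrane arm. It was at 86.3, 66.2, 80.0 and 63.6 TPM in CR31B against 90.3, 95.4, 96.4 and 107 TPM in DMSO (replicates 1 to 4), with a log2 fold change of -0.40 (adjusted p of 0.0827 by limma, SE 0.13). The groups did not overlap (exact permutation p of 0.0286), as was so for 16.2% of all tested genes. TMEM126A passed after rescaling over protein-coding genes (limma adjusted p of 0.0483), after quantile normalization (0.0337) and without CR31B replicate 1 (0.0480). The shares of all genes called by limma in these settings were 11.0%, 9.97% and 6.61%. Both NDUFAB1 and TMEM126A were named after their values were seen.

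The 7 mitochondrially encoded subunits are translated by mitochondrial ribosomes and need no eIF4A. Gene-level values do not show whether the reads of these genes came from mitochondrial ribosomes. None of the 7 was called by limma, none had an unadjusted p under 0.05, and their log2 fold changes ran from -0.26 to 0.10. MT-ND1 stood at 80.2, 82.2, 167 and 71.8 TPM in CR31B against 58.9, 92.9, 179 and 79.6 TPM in DMSO (replicates 1 to 4). Replicate 3 was the highest library of both groups for each of the 7 genes. The direction of the whole set moved when a single library was left out. All 7 were below 0 without CR31B replicate 3 (median -0.23) or DMSO replicate 1 (median -0.22). All 7 were above 0 without DMSO replicate 3 (median 0.17). Each of these fits kept the same-numbered library of the other group, so a level shared within a replicate number enters them as a difference. They do not show which library set the direction. In the fit without the replicate number, intervals such as -0.75 to 0.76 for MT-ND1 (95%, log2 scale) were too wide for a difference of the NDUFS5 size. With the replicate number as a block, none of the 7 was called by limma and none had an unadjusted p under 0.05. Whether the block fit could detect a difference of that size was not tested. Within replicate numbers, MT-ND3 was lower in CR31B in all 4, as were 2124 of all 11778 tested genes, while MT-ND6 was higher in 3.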

How the data were processed

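Ribosome footprints of IMR32 cells were measured in 8 libraries, 4 with CR31B and 4 with DMSO. The authors deposited 1 table of TPM values for 60651 gene identifiers. The submitters' processing notes name cutadapt 3.2, Bowtie2 2.3.4.1, STAR 2.7.1a, RSEM 1.2.28, DESeq2 1.32.0 and the build hg38, without their roles. The annotation and the strand setting are not given in the sources used here. TPM values sum to a fixed total, so read depth is unknown. The lowest values gave only a rough number of reads, since 50.0% to 56.5% of them lay within 0.15 of a whole read.

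Symbols were matched for 60481 identifiers and gene types (GENCODE 29) for 58361. The 11778 genes averaging 1 TPM or more were tested on log2(TPM + 1) with limma 3.58.1 in R 4.3.3 (empirical Bayes with a mean-variance trend, both groups in the fit, Benjamini-Hochberg adjustment over all tested genes, threshold 0.05). A fold change on this scale understates the change of low genes. Single values were compared by exact permutation of the group labels (70 assignments, two-sided). On 5 simulated tables with 200 changed genes, 97% of 4-fold and 78.8% of 2-fold changes were recovered and 6.77% of the calls were false. Changes under 2-fold, such as those of NDUFS5 and NDUFAF4, were not simulated, so recovery at that size is unknown. The simulated libraries were drawn independently, without any link by replicate number.

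Same-numbered libraries deviated together (correlations of 0.333, 0.324, 0.301 and 0.105 for replicates 1 to 4, against -0.206 to 0.134 with a median of -0.123 for different numbers, so the pair of replicate 4 did not stand out). Deviations were taken from each group's mean, which pulls different-number correlations down when same-number ones are up, so they are no independent reference. Every same-numbered pair was over 0.1, so a fit with the replicate number as a block was made. It is given where it changes a call, for the called members and for the mitochondrially encoded subunits. The alternatives were a pseudocount of 0.1, no filter or a minimum of 10 TPM, TPM rescaled over protein-coding genes, quantile normalization, no variance trend, the block and leaving out each library. Adding pseudogene copies to their member was chosen after seeing the data.

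Members and lists were chosen with earlier results of these data known. Named genes were those called, the 3 subunits and 2 assembly factors at each end of the log2 fold changes, the nuclear core subunits, and the highest and lowest by mean TPM. NDUFAF5, NDUFAF8, NDUFAB1, TMEM126A, MT-ND1 and the CX9C subunits were named after their values were seen. One tested subunit is not reported here by itself but is in all counts and fits. Start windows were read from GENCODE 29 transcripts.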

Additional observations from a re-analysis of the deposited data

Results flagged for a closer look

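In 8 of 96 groups of 4 libraries, 1 library stood far from the other 3; chance alone would give about 1 in 20 such groups, or 4.8. Among CR31B libraries, replicate 4 was low for NDUFA1 (370.07 TPM, the others 458.75 to 474.72 TPM) and NDUFB3 (130.93 TPM, the others 180.36 to 186.31 TPM). CR31B replicate 1 was high for NDUFA10 (25.97 TPM, the others 22.04 to 22.5 TPM) and for the share of TPM from protein-coding genes (61.28%, the others 51.77% to 52.29%). Among DMSO libraries, replicate 3 was low for NDUFA2 (120.32 TPM, the others 162.53 to 170.89 TPM) and high for NDUFB7 (135.06 TPM, the others 91.6 to 97.91 TPM). DMSO replicate 1 was high for NDUFA9 (194.91 TPM, the others 133.55 to 142.88 TPM), and DMSO replicate 2 was low for NDUFAF1 (7.18 TPM, the others 10.34 to 10.85 TPM). None of these genes was called by limma, and 7 members in all had an unadjusted p under 0.05.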

How the results depend on the processing

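Calls were the unstable part of these results. Over all genes, limma called 879 (406 higher, 473 lower), but 442 without the low-value filter (181 higher, 261 lower), 661 higher after rescaling over protein-coding genes, and 405 to 785 with 1 library left out (197 to 393 higher, 208 to 486 lower). A replicate block brought 1453 genes past the threshold (680 higher, 773 lower), and 3 members (2 higher), of which 2 were subunits; NDUFS8 was the only member whose call this pairing changed. Of the 2 members called, 1 was left without the filter and without the variance trend (0 higher, 0 assembly factors in both). Rescaling gave 4 members (3 higher, 3 subunits) and quantile normalization 2 higher members and 2 subunits. With 1 library left out, 0 to 1 members were called (0 to 0 higher, 0 to 1 lower), 0 to 1 subunits and 0 to 0 assembly factors. The log2 fold change of NDUFC2 turned to 0.031 after rescaling, 0.081 after quantile normalization, and ran from -0.0973 to 0.0725 with 1 library left out (above 0 without CR31B replicate 2 or 4 or DMSO replicate 1 or 3). The cause was not tested. NDUFS5 kept its direction under every alternative (-0.47 to -0.36), as did NDUFAF4 (0.39 to 0.57). Read depth is unknown, so no limit for low genes can be set from it.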
